A study of Mus musculus with 24 samples.

Results

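Lgr5 and Cd34 are classical marker genes of hair follicle stem cells. Both were followed across 8 groups of cells sorted from mouse back skin. The authors' tables of regulated genes give the name Lgr5 to probe sets 1450988_at and 1444519_at and the name Cd34 to probe set 1416072_at. These 3 probe sets, of 45037 tested, were all taken, and each was measured on every array.

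The series asks how beta-catenin activated in the epidermis changes the dermis. Fibroblasts of the dermis that carried GFP and keratinocytes of the epidermis that carried ItgA6 were sorted from mice on a C57BL/6 CBA mixed background, and 3 numbered mice gave 1 array each in every group, 24 arrays in all. Neonatal groups are wildtype, transient activation groups are D2 in anagen, sustained activation groups are D2 with ectopic follicles, and telogen groups are wildtype with resting follicles. As background, D2 mice carry an N-terminally truncated beta-catenin fused to an estrogen receptor domain under the Krt14 promoter, which is active in basal keratinocytes, and the protein is switched on by 4-hydroxytamoxifen. Between D2 and telogen groups, genotype and activation of the transgene change at the same time and cannot be told apart. The labels do not say which allele makes the dermal cells GFP+, and give no ages. Because a gene carries a name here only if the study listed it on these same samples, its changes are not independent evidence.

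LGR5 is a receptor for R-spondins, secreted proteins that keep Wnt receptors on the cell surface by removing the ligases that would clear them, and Lgr5 is itself switched on by Wnt and beta-catenin signalling in several epithelia. In resting mouse skin Lgr5 marks the lower bulge and the hair germ of the follicle, from which the growing follicle is rebuilt. CD34 is a heavily glycosylated surface protein of the bulge, where it marks slowly cycling keratinocytes. It appears in the bulge only after birth, once the first follicles have matured. Outside the epithelium CD34 is also carried by many dermal fibroblasts, by blood vessel endothelium, by mast cells and by blood-forming progenitors.

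Values are log2 signal, and a difference is the first-named group minus the second, in log2 units, with the limma standard error and the Benjamini-Hochberg adjusted p over all 45037 probe sets. A difference is called where that p is under 0.05. Array medians lay between 4.34 and 5.5, so a signal near 5 is that of a middling probe set, and 5th percentiles lay between -0.96 and 1.44. The value table carries no detection call. Signal compares arrays for 1 probe set and does not rank one gene against another.

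The sorts were checked against their markers. The 6 named of 12 listed keratinocyte markers (Krt5, Trp63, Itga6, Col17a1, Pkp1 and Perp) summed to 535 to 3720 linear units in dermis arrays, against 13129 to 18481 in epidermis arrays. The 8 named of 10 listed fibroblast markers summed to 17357 to 30058 in dermis arrays, against 473 to 7785 in epidermis arrays. Within the dermis the keratinocyte sum was highest in the sustained group and within the epidermis the fibroblast sum was highest in the neonatal group, and the values stand below beside the results they touch. Marker sums of other skin cells are given with the Cd34 results.

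In the dermal sort Lgr5 was high in neonatal skin, lower in both D2 states and lowest in telogen. Probe set 1450988_at read 7.34, 7.40 and 7.23 in neonatal dermis of mice 1, 2 and 3, against 1.51, 3.97 and 2.19 in telogen dermis of mice 2, 3 and 4. The telogen arrays were scattered, with mouse 3 well above the others, yet all lay far below the 3 neonatal arrays. The means were 7.32 ± 0.08 and 2.56 ± 1.27 (SD, n = 3 each), a difference of 4.77 ± 0.57 or 27.2-fold (adjusted p = 0.000611), in a comparison where 13.3% of all probe sets were called. The call held without any 1 of the 6 arrays, while the difference was 4.24 without telogen mouse 2, 5.47 without telogen mouse 3 and 2.93 with an offset of 16 added before log2. Within its array the probe set stood at the 80.5th to 82.1st percentile in neonatal dermis and at the 17.8th to 43.9th in telogen dermis. As these are arrays of many sorted cells, more cells with Lgr5 RNA and more Lgr5 RNA per cell cannot be told apart.

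The other Lgr5 probe set, 1444519_at, gave the same direction. It read 6.17, 6.12 and 5.77 in neonatal dermis, against -0.13, -0.12 and -0.77 in telogen dermis, with no overlap for either Lgr5 probe set (34.4% of all probe sets had groups without overlap). The difference was 6.36 ± 1.00 (adjusted p = 0.00283). Its telogen values lay between the 5.76th and 8.8th percentiles of their arrays, near the floor of the scale, so the size of that difference is loosely bounded. Across the 24 arrays the 2 probe sets had a Pearson r of 0.90, with 0.83 over the 12 dermis arrays and 0.89 over the 12 epidermis arrays, as a description of arrays they share.

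Lgr5 was also above telogen in sustained dermis. Probe set 1450988_at read 5.29, 5.30 and 4.33 in sustained dermis of mice 2, 3 and 5, and the arrays did not overlap those of telogen. The difference was 2.41 ± 0.57 or 5.33-fold (adjusted p = 0.0256), where 11% of all probe sets were called and the median probe set was itself 0.42 higher. With the offset of 16 the Lgr5 difference was 1.06 (adjusted p = 0.0113). Probe set 1444519_at read 4.39, 4.72 and 4.14 there, a difference from telogen of 4.76 ± 1.00 (adjusted p = 0.0163). With arrays centred on their median the call was lost for 1450988_at (1.90, adjusted p = 0.0517) and held for 1444519_at (4.24, adjusted p = 0.0216). Quantile normalization gave 1.76 (adjusted p = 0.0755) and 3.88 (adjusted p = 0.0382) for the same probe sets.

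In transient dermis the Lgr5 difference from telogen was nearly as large but was not called. Probe set 1450988_at read 4.72, 5.40 and 4.41 in transient dermis of mice 2, 3 and 4, all above the 3 telogen arrays. The difference was 2.29 ± 0.57 (adjusted p = 0.124), where 0.488% of all probe sets were called and 18.6% had groups that did not overlap. Without telogen mouse 3 it was 2.99 (adjusted p = 0.0229). Probe set 1444519_at was scattered, at -0.92, 4.17 and 0.58, overlapping telogen, with a difference of 1.61 ± 1.00 (adjusted p = 0.497).

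Neonatal dermis exceeded both D2 states in Lgr5. For 1450988_at the difference was 2.48 ± 0.57 from transient (adjusted p = 0.0247; 8.55% of probe sets called) and 2.35 ± 0.57 from sustained (adjusted p = 0.0479; 4.35% called). Probe set 1444519_at was called against transient (4.75 ± 1.00, adjusted p = 0.0169) and not against sustained (1.61 ± 1.00, adjusted p = 0.396). The call against sustained did not survive the loss of any 1 of the 6 arrays compared (adjusted p of 0.0941 to 0.14), and that against transient was lost without any 1 of 5 of the 6 (adjusted p up to 0.0759). Sustained and transient dermis did not differ detectably, at 0.13 ± 0.57 for 1450988_at (95% interval -1.14 to 1.39, adjusted p = 0.934) and 3.14 ± 1.00 for 1444519_at (adjusted p = 0.139), where 2.22% of probe sets were called.

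In the epidermal sort the order of states was another one: Lgr5 was lowest in neonatal skin, and the 3 other states overlapped. Probe set 1450988_at read 6.14, 6.21 and 6.00 in neonatal epidermis of mice 2, 3 and 4, against 7.99, 7.11 and 7.56 in telogen epidermis of mice 2, 3 and 4. All 3 neonatal arrays lay below all 3 telogen arrays. The means were 6.12 ± 0.11 and 7.55 ± 0.44 (SD, n = 3 each), a difference of -1.43 ± 0.33 or 2.70-fold lower in neonatal (adjusted p = 0.0294; 6.99% called). Probe set 1444519_at, at 4.67, 4.90 and 4.39 in neonatal and 5.64, 5.47 and 6.36 in telogen epidermis, did not overlap either but missed the threshold (-1.17 ± 0.41, adjusted p = 0.122; 32.6% of all probe sets had groups without overlap). The call for 1450988_at was also lost with arrays centred on their median (-1.23, adjusted p = 0.124) and without any 1 of 5 of the 6 arrays.

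In the D2 epidermis Lgr5 overlapped telogen for 1450988_at. Transient epidermis of mice 2, 3 and 4 read 8.01, 8.33 and 7.38 and sustained epidermis of mice 2, 3 and 5 read 7.65, 8.31 and 8.18 for 1450988_at. The differences from telogen were 0.36 ± 0.33 for transient (95% interval -0.37 to 1.09, adjusted p = 0.583; 0.844% of probe sets called) and 0.50 ± 0.33 for sustained (interval -0.23 to 1.23, adjusted p = 0.578; 1.15% called). Probe set 1444519_at read 7.30, 6.34 and 5.80 in transient and 6.63, 7.25 and 6.61 in sustained epidermis, the second group above all telogen arrays without being called (1.00 ± 0.41, adjusted p = 0.331; groups did not overlap for 23.7% of probe sets). Against each other, sustained and transient differed by 0.14 ± 0.33 for 1450988_at (adjusted p = 0.918; 0.0155% called).

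Neonatal epidermis also lay below both D2 states. For 1450988_at neonatal minus transient was -1.79 ± 0.33 (adjusted p = 0.0151; 5.94% called) and neonatal minus sustained was -1.93 ± 0.33 (adjusted p = 0.0122; 4.88% called). Probe set 1444519_at gave -1.83 ± 0.41 (adjusted p = 0.0311) and -2.17 ± 0.41 (adjusted p = 0.0178) for the same comparisons. Both probe sets had groups that did not overlap in both comparisons, as did 27.5% of all probe sets against transient and 28.5% against sustained. For 1450988_at both calls were lost with arrays centred on their median (adjusted p of 0.0895 and 0.0688).

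**Figure D1:**
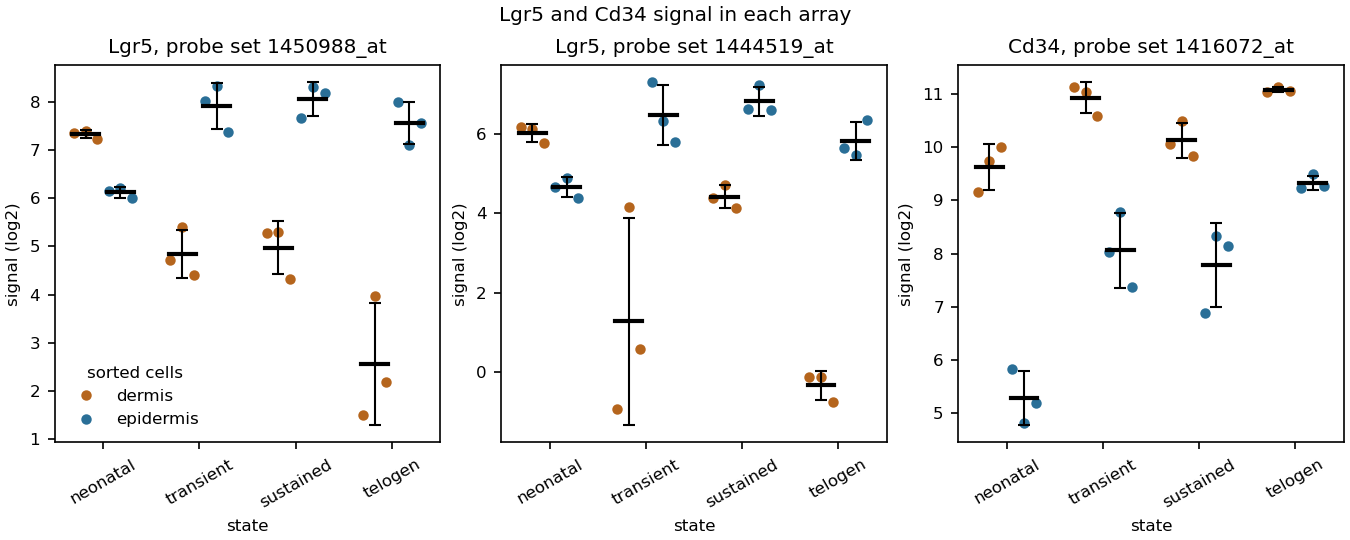
Log2 signal of the Lgr5 probe sets 1450988_at and 1444519_at and of the Cd34 probe set 1416072_at on each of the 24 arrays, by state along the horizontal axis, with dermis in orange and epidermis in blue. Points are arrays, the long bar is the mean and the whisker the SD of 3 arrays. Lgr5 in dermis is highest in the neonatal state (1450988_at at 7.23 to 7.40), whereas Cd34 in epidermis is lowest there (4.82 to 5.83).

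Comparing the sorts, Lgr5 was lower in dermis than in epidermis in transient, sustained and telogen skin and not in neonatal skin. For 1450988_at dermis minus epidermis was -3.06 ± 0.47 in transient (adjusted p = 9.27e-05; 25.6% of probe sets called), -3.08 ± 0.47 in sustained (adjusted p = 0.000144; 12.6% called) and -4.99 ± 0.47 in telogen skin (adjusted p = 3.06e-07; 25.6% called), the last -3.15 with the offset of 16. In all 9 mice of these states dermis was below epidermis, with dermis minus epidermis between -6.48 and -2.37. Any pairing would give that count, since every dermis array lay below every epidermis array of its state. In neonatal skin the 3 dermis arrays lay above the 3 epidermis arrays, and in both mice with both sorts dermis was higher, by 1.25 and 1.03. The group difference of 1.21 ± 0.47 missed the threshold (adjusted p = 0.0964), where 15.8% of probe sets were called and 34.6% had groups that did not overlap. For 1444519_at the differences were 1.37 (neonatal, adjusted p = 0.296), -5.21 (transient, adjusted p = 8.03e-05), -2.41 (sustained, adjusted p = 0.053) and -6.16 (telogen, adjusted p = 1.11e-05).

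The neonatal effect on Lgr5 ran in opposite directions in the sorts. Neonatal minus telogen was 4.77 in dermis and -1.43 in epidermis, and the dermal effect exceeded the epidermal one by 6.20 ± 0.67 for 1450988_at (adjusted p = 2.3e-05) and 7.53 ± 1.12 for 1444519_at (adjusted p = 0.00051), where 5.67% of probe sets were called. The call for 1450988_at held in each of the 12 fits that left out 1 array (5.68 to 6.91). The corresponding difference of effects was 1.93 ± 0.67 for transient (adjusted p = 0.162; 0.99% called) and 1.92 ± 0.67 for sustained (adjusted p = 0.15; 2.77% called). Without dermis telogen mouse 3 these became 2.63 (adjusted p = 0.0172) and 2.62 (adjusted p = 0.00984).

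Cd34 had its higher signal in the dermal sort in all 4 states, so on these arrays it did not single out the follicle keratinocytes it is known to mark. Telogen dermis of mice 2, 3 and 4 read 11.05, 11.13 and 11.05, against 9.24, 9.49 and 9.26 in telogen epidermis of the same mouse numbers. The arrays of each group lay close together. Dermis minus epidermis was 4.35 ± 0.39 in neonatal (adjusted p = 3.12e-07), 2.87 ± 0.39 in transient (adjusted p = 2.43e-05), 2.34 ± 0.39 in sustained (adjusted p = 0.00032) and 1.75 ± 0.39 in telogen skin (adjusted p = 0.0024). Of all probe sets 15.8%, 25.6%, 12.6% and 25.6% were called in these comparisons, in the same order. Cd34 was higher in dermis in 11 of 11 mice, by 1.65 to 5.18. That count adds nothing to the group comparison, since every dermis array lay above every epidermis array of its state. Within the dermis arrays it stood between percentiles 94.3 and 99.4.

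Within the epidermis Cd34 was highest in telogen and much lower in neonatal skin. Neonatal epidermis of mice 2, 3 and 4 read 5.83, 4.82 and 5.19, far below every telogen array. The means were 5.28 ± 0.51 and 9.33 ± 0.14 (SD, n = 3 each), a difference of -4.05 ± 0.47 or 16.5-fold lower (adjusted p = 0.00166). In neonatal epidermis the probe set stood at the 52.6th to 64.8th percentile of its array, against the 95.1st to 96th in telogen. Neonatal epidermis also lay below transient (-2.78 ± 0.47, adjusted p = 0.0111) and sustained epidermis (-2.50 ± 0.47, adjusted p = 0.0179). The call against sustained was lost with arrays centred on their median (-2.15, adjusted p = 0.0589) and without neonatal mouse 3, sustained mouse 3 or sustained mouse 5 (adjusted p up to 0.0688).

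The D2 epidermis had Cd34 signal between these extremes. Transient epidermis of mice 2, 3 and 4 read 8.03, 8.77 and 7.37, and sustained epidermis of mice 2, 3 and 5 read 6.88, 8.33 and 8.13. Every one of the 6 arrays was below every telogen array. Neither difference was called, at -1.27 ± 0.47 for transient (95% interval -2.32 to -0.23, adjusted p = 0.207) and -1.55 ± 0.47 for sustained (interval -2.59 to -0.51, adjusted p = 0.181). Groups did not overlap for 26.1% of all probe sets in the first comparison and 23.7% in the second. The sustained difference was called with all 24 arrays in the fit (adjusted p = 0.0487) and with a trended, robust variance (adjusted p = 0.03). Sustained minus transient was -0.28 ± 0.47 (interval -1.32 to 0.77, adjusted p = 0.878).

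Dermal Cd34 varied less. Neonatal dermis of mice 1, 2 and 3 read 9.15, 9.73 and 10.01, below all telogen arrays, with a difference of -1.45 ± 0.28 or 2.73-fold lower (adjusted p = 0.00872). Transient dermis read 11.14, 11.05 and 10.59 and overlapped telogen (-0.15 ± 0.28, interval -0.78 to 0.48, adjusted p = 0.851). Sustained dermis of mice 2, 3 and 5 read 10.06, 10.49 and 9.84, below telogen and below transient without overlap. Neither of those differences was called, at -0.95 ± 0.28 from telogen (adjusted p = 0.0589; 34.3% without overlap) and -0.80 ± 0.28 from transient (adjusted p = 0.179; 25.1% without overlap). The difference from telogen was called with arrays centred on their median (-1.47, adjusted p = 0.0181). Neonatal was below transient dermis (-1.30 ± 0.28, adjusted p = 0.0204), a call lost with arrays centred on their median (adjusted p = 0.0509), with only these groups in the fit (adjusted p = 0.0884) and without any 1 of 4 of the 6 arrays (adjusted p up to 0.0725). Neonatal did not differ detectably from sustained dermis (-0.50 ± 0.28, adjusted p = 0.353).

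Neonatal Cd34 was below telogen in both sorts, and the epidermal effect was the larger. The dermal effect minus the epidermal one was 2.60 ± 0.55 (adjusted p = 0.008). With the mouse as a block it was 2.79, with an adjusted p of 0.0512, and with arrays centred on their median it was 2.20, with an adjusted p of 0.05. The same difference of effects was 1.12 ± 0.55 for transient (adjusted p = 0.32) and 0.60 ± 0.55 for sustained (adjusted p = 0.688). The count of calls over 12 comparisons within a sort was 7 for Lgr5 1450988_at, 5 for Lgr5 1444519_at and 5 for Cd34, and over the 4 comparisons between sorts it was 3, 2 and 4 in the same order. The share of all probe sets called ran from 0.0155% to 13.3% over the 12 comparisons and from 12.6% to 25.6% over the 4.

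**Figure D2:**
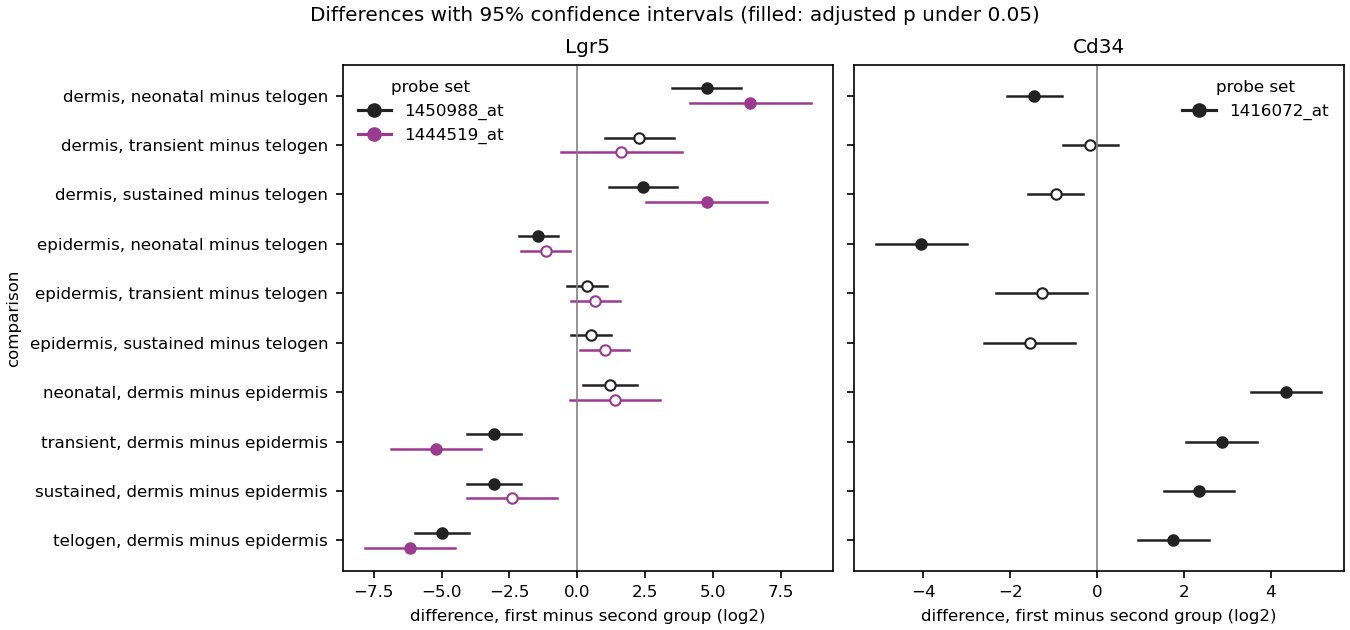
Differences in log2 signal (horizontal axis) with 95% confidence intervals from limma for each state minus telogen within a sort and for dermis minus epidermis within a state, Lgr5 left and Cd34 right. Filled points passed an adjusted p of 0.05. Neonatal minus telogen is 4.77 in dermis and -1.43 in epidermis for Lgr5 1450988_at, and -1.45 and -4.05 for Cd34, and all 4 dermis minus epidermis differences of Cd34 are above 0.

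Ordered by mean, Lgr5 1450988_at was highest in sustained epidermis (8.05), then transient epidermis (7.91), telogen epidermis (7.55), neonatal dermis (7.32), neonatal epidermis (6.12), sustained dermis (4.97), transient dermis (4.84) and telogen dermis (2.56). None of the 5 neighbouring pairs tested was called. The other pairs cross both sort and state and were not tested: telogen epidermis and neonatal dermis overlapped, while neonatal epidermis lay above sustained dermis without overlap. Cd34 was highest in telogen dermis (11.08), then transient (10.93), sustained (10.13) and neonatal dermis (9.63), and then telogen (9.33), transient (8.06), sustained (7.78) and neonatal epidermis (5.28). Of the neighbours only sustained and neonatal epidermis were called apart (adjusted p = 0.0179), and neonatal dermis overlapped telogen epidermis.

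Markers of other cells moved with some of these results. In dermis the summed keratinocyte markers were 541 to 894 linear units in neonatal, 557 to 1470 in transient, 2041 to 3720 in sustained and 535 to 927 in telogen arrays. Sustained dermis, where Lgr5 was above telogen, had the highest keratinocyte sum, and 4 of the 6 named markers were called higher there: Itga6 (2.68 ± 0.41), Trp63 (2.39 ± 0.34), Pkp1 (2.34 ± 0.52) and Krt5 (2.13 ± 0.53). Of all named genes 18% were called higher in that comparison. The part of keratinocyte RNA in the sustained result was not tested. In neonatal dermis, where Lgr5 was highest, the keratinocyte sum overlapped that of telogen, and 1 of the 6 markers was called (Itga6, 1.87 ± 0.41 higher). The summed hair shaft and inner root sheath keratins did not overlap, at 104 to 220 in neonatal and 20.5 to 35 linear units in telogen dermis. The part of such RNA in the neonatal result was not tested either.

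The summed fibroblast markers of the epidermal sort were 6218 to 7785 in neonatal, 473 to 563 in transient, 625 to 738 in sustained and 1784 to 2616 in telogen epidermis. Neonatal epidermis had the highest fibroblast sum and the lowest Cd34, and 4 of the 8 named markers were called higher there, led by Col5a1 (3.32 ± 0.39) and Col1a1 (2.17 ± 0.36). Of all named genes 12.3% were called higher in neonatal than in telogen epidermis. Against telogen both D2 states had a lower fibroblast sum beside their lower Cd34 values, with Col3a1 and Col1a2 called lower in each. The part of dermal RNA in those D2 values was not tested.

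**Figure D3:**
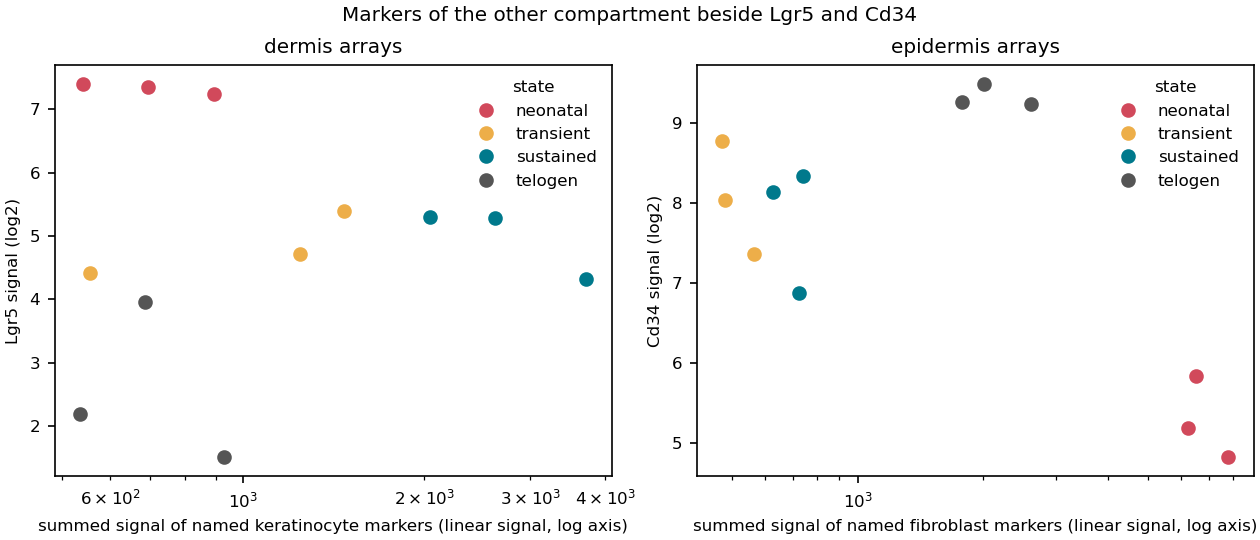
Left, Lgr5 1450988_at signal (log2) in each dermis array against the summed linear signal of 6 keratinocyte markers (log axis). Right, Cd34 signal (log2) in each epidermis array against the summed linear signal of 8 fibroblast markers (log axis). Points are arrays coloured by state, and the neonatal arrays combine the highest Lgr5 with a keratinocyte sum of 541 to 894 (left) and the lowest Cd34 with a fibroblast sum of 6218 to 7785 (right).

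Other cells known to carry CD34 were represented by fewer named genes. The 5 named of 14 listed endothelial markers (Tek, Kdr, Flt1, Plvap and Erg) summed to 249 to 312 in neonatal, 308 to 640 in transient, 286 to 743 in sustained and 635 to 883 linear units in telogen epidermis. In dermis they summed to 185 to 299, 243 to 410, 98 to 214 and 459 to 675 in the same order of states. The telogen range of the endothelial sum reached highest in both sorts, and in epidermis the transient and sustained ranges overlapped it. Plvap, a protein of vessel wall pores, was called lower in neonatal than telogen skin in both sorts (-2.71 ± 0.44 in epidermis and -1.95 ± 0.33 in dermis), and Flt1, a VEGF receptor, in epidermis (-2.31 ± 0.38). In neonatal dermis Tek, an angiopoietin receptor, was called lower (-4.89) and Erg, an endothelial transcription factor, higher (2.97). Of the 10 mast cell markers only Kit carried a name, at 6.9 to 11.7 in neonatal, 0.2 to 4.2 in transient, 8.6 to 23 in sustained and 11.5 to 18.1 linear units in telogen dermis. The 4 named of 8 listed markers of blood-forming progenitors other than Cd34 summed to 418 to 492 in neonatal, 2003 to 3070 in transient, 585 to 975 in sustained and 2941 to 3313 in telogen dermis. In epidermis they summed to 216 to 345, 327 to 672, 218 to 413 and 905 to 1176 in the same order of states. Ly6a, also a fibroblast gene, is one of the 4. It made up most of the sum in neonatal, sustained and telogen dermis (mean log2 signal of 8.81, 9.48 and 11.6). The sum there mainly follows Ly6a and says little about progenitors. The part of these cells in the Cd34 values was not tested.

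Among the R-spondin receptors and ligands, 7 of 9 listed genes carried a name, and Rspo2 was the member called in every state of the dermis. Against telogen dermis 3 were called higher and 1 lower in neonatal, 1 higher in transient and 3 higher in sustained dermis, with medians over the 7 genes of 0.26, 1.34 and 1.42. Lgr5 itself is 1 of the 7, and it is 1 of the 3 called higher in neonatal and 1 of the 3 in sustained dermis. Of the 4560 named genes as a whole, 23.4% were higher and 28.2% lower in neonatal, 1.43% and 0.439% in transient and 18% and 19.2% in sustained dermis, with medians of -0.14, -0.06 and 0.09. Rspo2, a ligand made by the dermal papilla, was called higher in all 3 states, at 4.73, 6.10 and 6.17 (means of neonatal, transient and sustained) against -2.30 in telogen dermis, which lies below the 5th percentile of every array, so no size is given. Rspo3, another ligand, was higher in neonatal dermis by 3.24 ± 0.78 (adjusted p = 0.0224), and neonatal minus telogen was -0.82 ± 0.24 for Rspo1 (adjusted p = 0.0491), a call lost with quantile normalization. Lgr4, the widely expressed receptor of the family, was higher in sustained dermis by 1.60 ± 0.28 (adjusted p = 0.00787).

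In epidermis the same family had 1 gene higher and 1 lower in neonatal, 0 called in transient and 1 higher in sustained skin against telogen. Lgr6, the receptor that marks cells above the bulge, was higher in neonatal epidermis by 1.51 ± 0.38 (adjusted p = 0.0443), where Lgr5 was the lower one. Lgr4 was higher in sustained epidermis by 1.27 ± 0.21 (adjusted p = 0.0221). Of all genes with a name 12.3% were higher and 16.8% lower in neonatal, 2.81% and 0.987% in transient and 3.05% and 3.22% in sustained epidermis. In the transient comparison, where limma called 0 of the 7, 3 had an unadjusted p under 0.05. With arrays centred on their median none of the 3 epidermal calls of this family remained. Between the sorts Rspo1 was 6.66 ± 0.36 higher in dermis than in epidermis in telogen (adjusted p = 6.07e-10), the reverse of Lgr5, and Rspo1 and Rspo4 were called higher in dermis in all 4 states.

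Of 28 listed bulge and lower follicle stem cell genes 21 carried a name, Lgr5 and Cd34 among them, and the bulge keratin Krt15 was not among them. In neonatal epidermis 2 were higher and 9 lower than in telogen, with a median of -0.93 against -0.09 over all named genes. Of all named genes 12.3% were higher and 16.8% lower there, and 3.05% and 3.22% in sustained epidermis. Beside Cd34 the largest called falls on the list were those of Fgf18 (-3.58 ± 0.43, adjusted p = 0.00207), a growth factor of the resting bulge, and Angptl7 (-3.49 ± 0.30, adjusted p = 0.000393), a secreted protein of the quiescent bulge. Tnc, the matrix protein tenascin C, rose by 3.88 ± 0.27 (adjusted p = 0.000151). Transient epidermis had 1 gene higher (Tnc, 3.74 ± 0.27) and 0 lower of the 21, with a median of 0.05. Sustained epidermis had 5 higher and 1 lower with a median of 0.36, led by Tnc (3.01 ± 0.27), Bmp6 (2.87 ± 0.57) and Gli1 (2.86 ± 0.42), a target of hedgehog signalling, while Angptl7 fell (-2.16 ± 0.30).

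The same list in the dermal sort had 7 genes higher and 2 lower in neonatal skin against telogen. In transient skin 0 were called, and in sustained skin 9 were higher and 1 lower. The medians were 0.67, 0.29 and 1.14 in that order of states. These counts are to be read against limma calls of 23.4% up and 28.2% down over the 4560 named genes in neonatal dermis. The matching shares were 1.43% and 0.439% in transient and 18% and 19.2% in sustained dermis. Medians over that whole set were -0.14, -0.06 and 0.09. Beside Lgr5 neonatal dermis had higher Gli1 (3.04 ± 0.88, adjusted p = 0.049) and Tnc (2.96 ± 0.23, adjusted p = 6.1e-05) and lower Tgfb2 (-3.29 ± 0.31, adjusted p = 0.000185). Sustained dermis had higher Gli1 (3.90 ± 0.88), Bmp6 (3.11 ± 0.71), Lhx2 (2.92 ± 0.69) and Foxc1 (2.63 ± 0.36), the last pair being transcription factors of bulge keratinocytes. The sustained arrays had the highest keratinocyte sum of the dermis, and the part of keratinocyte RNA in these values was not tested. With arrays centred on their median the higher counts were 4 in neonatal and 4 in sustained dermis. In transient dermis, where limma called 0 of the 21, 8 had an unadjusted p under 0.05, Lgr5 among them (unadjusted p = 0.00243).

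Hair germ and matrix genes, 4 named of 11, were higher in epidermis of the states where Lgr5 was not. All 4 were higher in neonatal, 2 in transient and 3 in sustained epidermis than in telogen, with medians of 3.93, 3.09 and 3.29. Of all named genes 12.3%, 2.81% and 3.05% were higher in the same order. Shh, the morphogen of the germ, was higher by 4.62 ± 0.67 in neonatal, 4.12 ± 0.67 in transient and 4.73 ± 0.67 in sustained epidermis. Dlx3, a regulator of the hair matrix, was higher by 4.64, 4.84 and 4.77 (SE 0.60 each) in the same order. The telogen epidermis means were low, at 2.34 for Shh and 2.76 for Dlx3, below the median of every array (4.34 or more). Without transient mouse 4 the transient count was 1.

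Of 18 listed Wnt target and feedback genes 13 carried a name. In dermis 6 were higher and 2 lower in neonatal, 1 higher in transient and 7 higher and 1 lower in sustained skin. The medians were 1.05, 0.23 and 1.05 in that order, against -0.14, -0.06 and 0.09 for the named genes together. Of that whole set limma called 23.4% up and 28.2% down in neonatal dermis. The transient shares were 1.43% up and 0.439% down, and the sustained ones 18% up and 19.2% down. Dkk1, a secreted Wnt inhibitor, rose by 5.08 ± 0.38 in neonatal and 3.35 ± 0.38 in sustained dermis, beside Lef1, a transcription factor of the pathway (1.99 ± 0.35 in neonatal). Wif1, another secreted inhibitor, rose by 3.22 ± 0.55 in transient (adjusted p = 0.0424) and 2.76 ± 0.55 in sustained dermis, and Sp5 fell by 3.72 in both neonatal and sustained dermis, to signals near the floor of the scale. The 1 call in transient dermis was lost under both quantile normalization and median centring. In epidermis 5 were higher in neonatal (12.3% of all named genes were), among them Lef1 (3.24 ± 0.48) and Fzd10 (2.82 ± 0.46), a Wnt receptor. Axin2, the standard feedback target, was lower in transient epidermis (-1.37 ± 0.24, adjusted p = 0.0361), the 1 call there, which was lost without transient mouse 4 and with arrays centred on their median. In sustained epidermis limma called 0 of the 13, and 6 had an unadjusted p under 0.05, while without transient mouse 4 in the fit 1 was called higher and 1 lower.

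Stem cell genes of the isthmus, infundibulum and sebaceous gland, the follicle parts above the bulge, were named in 7 of 8 cases. In neonatal epidermis 1 was higher and 4 lower than in telogen, among them Ly6a (-2.78 ± 0.33), which encodes the surface protein Sca-1, Scd1 (-2.70 ± 0.23), a sebaceous lipid enzyme, and Gata6 (-2.56 ± 0.32), a transcription factor of the upper follicle. In dermis 2 were higher and 2 lower in neonatal, and 2 higher and 1 lower in sustained skin. Among the 4560 named genes limma called 23.4% up and 28.2% down in neonatal dermis, and 18% up and 19.2% down in sustained dermis. With only 7 genes the dermal counts are near these shares and do not set the list apart. For neonatal epidermis the shares were 12.3% up and 16.8% down. In transient skin of either sort limma called 0 of 7 (2 in dermis and 5 in epidermis had an unadjusted p under 0.05). Ly6a was lower in neonatal (-2.79 ± 0.26) and sustained dermis (-2.13 ± 0.26), as Cd34 was in value. In sustained epidermis 2 were higher, Prdm1 (2.14 ± 0.39) and Sox9 (1.30 ± 0.21), where the share of named genes called higher was 3.05%.

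Of the Cd34 family and its selectin partners Cd34, Sele and Selp carried a name, 3 of 6. E-selectin (Sele) and P-selectin (Selp), adhesion molecules of activated endothelium, were called lower in neonatal than telogen epidermis (-4.99 ± 0.83 and -5.40 ± 0.86), so all 3 fell there, Selp to a mean of 1.02 near the floor. Of all named genes 16.8% were lower in neonatal epidermis. In dermis Cd34 alone of the 3 was called, in the neonatal comparison. Sele averaged 0.59 in telogen dermis and 7.28 in telogen epidermis, the opposite order to Cd34.

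Lower dermal and adipocyte-lineage fibroblast genes, a class that includes Cd34, were named in 16 of 20 cases. In neonatal dermis 2 were higher and 5 lower than in telogen, in transient dermis limma called 0 (5 had an unadjusted p under 0.05), and in sustained dermis 1 was higher and 8 lower, with medians of -0.39, -0.41 and -1.49. The neonatal counts are to be read against 23.4% higher and 28.2% lower of all named genes, and the lower count is near that share. In transient dermis the shares were 1.43% higher and 0.439% lower, and in sustained dermis 18% higher and 19.2% lower. Beside Cd34, neonatal dermis had lower Pi16 (-4.62 ± 0.40) and Mfap5 (-3.88 ± 0.29), which mark adventitial fibroblasts, and higher Gpc3 (2.91 ± 0.30) and Dlk1 (2.80 ± 0.72), which mark fetal and young mesenchyme. Sustained dermis had lower Tnxb (-4.26 ± 0.33), Ackr3 (-4.01 ± 0.58) and Dpp4 (-3.67 ± 0.37), while Cd34 itself missed the threshold. Upper dermal fibroblast genes, 8 named of 10, had 2 higher and 2 lower in neonatal, 1 higher in transient and 3 higher and 1 lower in sustained dermis. The neonatal counts of these 8 are also near the shares of all named genes (23.4% and 28.2%).

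Dermal papilla genes, 14 named of 20, were higher than telogen in every other state of the dermis wherever they were called, the direction of Lgr5 there. In dermis 8, 5 and 10 of them were higher in neonatal, transient and sustained skin and 0 lower, with medians of 1.92, 1.72 and 1.96. Of all named genes 23.4%, 1.43% and 18% were higher and 28.2%, 0.439% and 19.2% lower in the same order, with medians of -0.14, -0.06 and 0.09. Corin, a papilla protease, was higher by 3.43 ± 0.56 in neonatal, 5.73 ± 0.56 in transient and 5.05 ± 0.56 in sustained dermis. Hhip, a hedgehog inhibitor, was higher by 4.66, 4.29 and 4.59 (SE 0.52 each). In transient dermis those genes passed the test while Lgr5 did not.

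**Figure D4:**
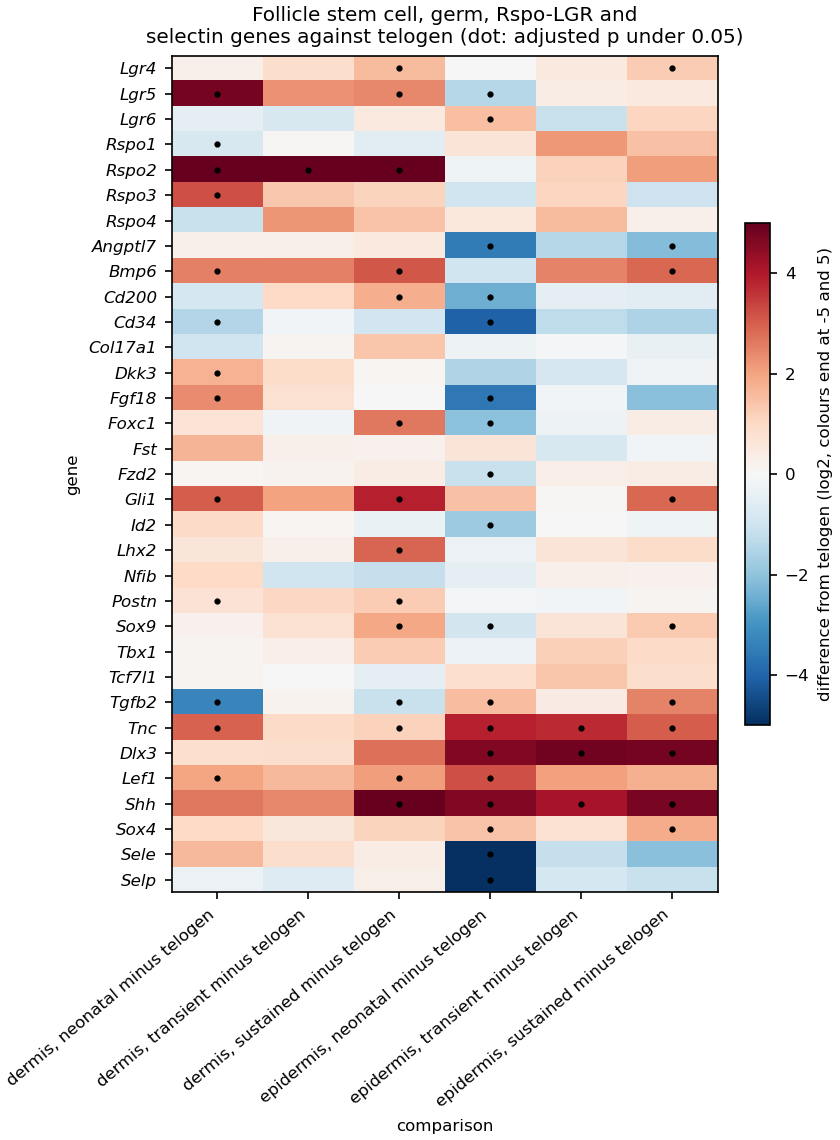
Differences from telogen (log2, colours end at -5 and 5) for the named genes of the Rspo-LGR, bulge, hair germ and selectin lists, genes down the page and the 6 comparisons across. A dot marks an adjusted p under 0.05 in limma. Lgr5 is red in all 3 dermis columns and blue in neonatal epidermis (-1.43), where Cd34 (-4.05), Fgf18 (-3.58) and Angptl7 (-3.49) are blue as well.

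Genes whose signal was most like that of each marker were ranked by Pearson r of log2 signal among 4346 named genes whose mean reached the overall median in at least 1 group. The arrays fall into the same 8 groups for every gene, so r mainly reports a like order of groups. Over 24 arrays Lgr5 1450988_at was most like Efnb2 (r = 0.915), a membrane-bound ephrin, Galnt18 (0.898), Chn2 (0.891), Slc38a2 (0.883), an amino acid transporter, and Micall1 (0.878). Efnb2 averaged 10.12 in neonatal and 6.19 in telogen dermis, and 9.50 in neonatal and 10.85 in telogen epidermis. Over the 12 dermis arrays the leaders were Prss35 (0.976), Efna5 (0.958), another ephrin, and Gins2 (0.957), part of the DNA replication helicase. Over the 12 epidermis arrays they were Fzd2 (0.969), a Wnt receptor on the bulge list, Ampd3 (0.957) and Nrbp2 (0.946).

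Cd34 over 24 arrays was most like Ppp2r2c (r = 0.960), a phosphatase regulatory subunit, Anpep (0.938), the surface aminopeptidase CD13 of many fibroblasts, Fam102b (0.930), Laptm4b (0.924), whose probe set may also read similar transcripts, and Gem (0.919), a small GTPase. Ppp2r2c averaged 7.98 in neonatal and 9.17 in telogen dermis, and 4.07 in neonatal and 7.69 in telogen epidermis. Over the 12 dermis arrays the leaders were Mettl24 (0.982), Ly6e (0.975) and Cxcl9 (0.973), an interferon-induced chemokine. Over the 12 epidermis arrays they were Susd2 (0.974), Aadac (0.972) and Prlr (0.971), the prolactin receptor. Prlr averaged 5.67 in neonatal and 9.02 in telogen epidermis. No gene was among the leaders of both markers.

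The authors' deposited tables of regulated genes gave the same directions as limma in all 14 comparisons in which they list the probe sets. Both rest on the same arrays and those tables list only regulated genes, so a shared direction is no independent evidence. Sizes differed: for 1444519_at in neonatal against telogen dermis they have 8.71-fold and limma 82.2-fold. They also list 1444519_at as 4.5-fold up in neonatal against sustained dermis, which limma did not call (adjusted p = 0.396). For dermal Lgr5 1450988_at the authors' deposited table has neonatal 14.7-fold up against telogen, sustained 3.40-fold up and transient 3.20-fold up, the last a comparison that limma did not call. For Cd34 the authors' deposited table has neonatal 2.65-fold down against telogen in dermis and 11.3-fold down in epidermis. The authors' deposited table also has Cd34 2.83-fold down in sustained against telogen epidermis, which limma did not call. Lgr5 was not listed in the epidermal table.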

How the data were processed

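RNA of sorted cells was amplified and hybridized to 24 Affymetrix arrays, 3 in each of 8 groups, per the labels' protocols. RMA and MAS5 are the tools named in the submitters' processing notes, with neither version nor role. The deposited value table is log2 signal, scaled so that each array's linear mean, after trimming 2% at either end, is 100. Per the file headers, the authors' tables give linear fold changes (ratios), up or down, between pairs of groups. The genome build was not given in the sources used here, and no coordinates are printed.

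Of 45101 probe sets 64 controls were left out. Names came from the authors' tables, which list 7261 of the tested probe sets (6480 with 1 gene, 267 with several, 514 with none), so 4560 genes on 14.4% of the probe sets are named. Where a gene had more than 1 probe set, that of highest mean was used, but each Lgr5 probe set was reported. Values entered as deposited, negative ones included, with no pseudocount.

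The 12 arrays of a sort were fitted with limma 3.58.1 under R 4.3.3, using 1 mean for each state and default eBayes. Dermis minus epidermis and the differences of effects used all 24 arrays. That is 19 comparisons a gene, each adjusted by Benjamini-Hochberg over 45037 probe sets. The 3 arrays a group limit precision.

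The members and lists were chosen with earlier results of these data known. Named genes are the members, the 2 to 4 list members of largest called difference in the comparison described, and the 5 (24 arrays) and 3 (12 arrays of a sort) genes of highest Pearson r. Marker genes are given beside the results they touch. Marker sums leave out Lgr5 and Cd34.

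Within a state, dermal and epidermal arrays of 1 mouse number were treated as 1 animal (11 mice), and across states as separate animals. The paired arrays' deviations from their group means correlated by -0.05 to 0.15 (median 0.02). Alternatives were quantile normalization, median centring, dim probe sets left out, an offset of 16 before log2, all 24 arrays or only the groups compared, a replicate block, trended robust eBayes, array weights, percentiles, the other Lgr5 probe set and each array left out in turn. The other Lgr5 probe set under both scalings and the list counts under both scalings and without epidermis transient mouse 4 were added after seeing the data. The fit was tested on simulated data. Figures were drawn with Python 3.11.15 and matplotlib 3.10.9.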

Additional observations from a re-analysis of the deposited data

Results flagged for a closer look

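Both genes were singled out because their neonatal effect differed between the sorts by a test of the difference itself. For Lgr5 1450988_at neonatal minus telogen was 6.2 log2 units larger in dermis than in epidermis (limma adjusted p = 2.3e-05), with 4.77 in dermis and -1.43 in epidermis, and the arrays of the groups did not overlap in either sort. For Cd34 the same difference of effects was 2.6 (limma adjusted p = 0.008), with -1.45 in dermis and -4.05 in epidermis, again without overlap in either sort. Between neonatal and telogen, groups did not overlap for 34.4% of all probe sets in dermis and 32.6% in epidermis. No group has the 4 or more arrays that a check for a lone outlying array would need.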

How the results depend on the processing

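Of 21 called differences of Lgr5 1450988_at and Cd34, 0 changed direction under any alternative run, and adjusted p are from limma throughout. Uncalled Lgr5 differences that changed sign were sustained minus transient in dermis (-0.078 with quantile normalization and -0.10 with median centring) and in epidermis (-0.034 with the replicate block). With arrays centred on their median calls were lost for Lgr5 in sustained minus telogen dermis (1.90, adjusted p = 0.0517) and in neonatal epidermis minus telogen (-1.23, 0.124), transient (-1.33, 0.0895) and sustained (-1.58, 0.0688), and for Cd34 in neonatal minus transient dermis (-1.20, 0.0509), neonatal minus sustained epidermis (-2.15, 0.0589) and the neonatal difference of effects (2.20, 0.05), while Cd34 in sustained minus telogen dermis was gained (-1.47, 0.0181). Quantile normalization lost Lgr5 in sustained minus telogen dermis (1.76, 0.0755). For these and the changes below the cause was not tested, except where fewer arrays or another probe set enter by construction. Gained calls were Cd34 in sustained minus telogen dermis without dim probe sets (-0.95, 0.029), with trended robust eBayes (-0.95, 0.00337) and with the offset (-0.94, 0.0176), Cd34 in sustained minus transient dermis with trended robust eBayes (-0.80, 0.0243), Cd34 in sustained minus telogen epidermis with all 24 arrays (-1.55, 0.0487) and trended robust eBayes (-1.55, 0.03), Lgr5 in transient minus telogen dermis with all 24 arrays (2.29, 0.0212) and trended robust eBayes (2.29, 0.028), and Lgr5 in neonatal dermis minus epidermis with the groups compared alone (1.21, 0.0177) and the offset (1.05, 0.00586). With only the groups compared in the fit calls were lost for Lgr5 in sustained minus telogen dermis (2.41, 0.106) and in neonatal epidermis minus telogen (-1.44, 0.0504) and transient (-1.79, 0.103), and for Cd34 in neonatal minus transient dermis (-1.30, 0.0884) and in neonatal epidermis minus sustained (-2.50, 0.0844) and transient (-2.78, 0.0873). All 24 arrays lost Lgr5 in neonatal minus telogen epidermis (-1.44, 0.0621). The other Lgr5 probe set was not called in neonatal minus sustained dermis (1.61, 0.396), neonatal minus telogen epidermis (-1.17, 0.122) and sustained dermis minus epidermis (-2.41, 0.053). Array weights changed no call.

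Equal mouse numbers in different states were treated as separate animals, and whether such arrays share a batch is not known here. Their deviations from group means correlated by 0 to 0.05 over 13 dermal pairs and -0.09 to 0.25 over 15 epidermal pairs, which cannot settle it. A replicate block on these numbers was run as an alternative. With that replicate block 9 of the 12 called differences within a sort were lost: Lgr5 in dermis for neonatal minus sustained (2.02, 0.262), neonatal minus transient (2.27, 0.151) and sustained minus telogen (2.54, 0.106), Lgr5 in neonatal epidermis minus telogen (-1.44, 0.0854), transient (-1.79, 0.0562) and sustained (-1.76, 0.128), and Cd34 for neonatal minus telogen dermis (-1.30, 0.0802), neonatal minus transient dermis (-1.15, 0.136) and neonatal minus sustained epidermis (-2.18, 0.145). Between the sorts the block on the mouse changed 1 call, the Cd34 neonatal difference of effects (2.79, 0.0512).

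Leaving out 1 array gave these ranges where a call or sign changed. In dermis Lgr5 neonatal minus sustained was 2.03 to 2.52 (lost without any 1 of the 6 arrays), neonatal minus transient 2.26 to 2.76 (lost without any but transient mouse 3), sustained minus telogen 1.89 to 3.12 (lost without telogen mouse 2 or 4 or sustained mouse 2 or 3), transient minus telogen 1.76 to 2.99 (gained without telogen mouse 3) and sustained minus transient -0.088 to 0.45. In epidermis Lgr5 neonatal minus telogen was -1.66 to -1.22 (lost without any but telogen mouse 3), neonatal minus transient -2.06 to -1.58 (lost without neonatal mouse 2) and sustained minus transient -0.12 to 0.35. The Lgr5 differences of effects were 1.41 to 2.63 for transient and 1.40 to 2.62 for sustained, both gained without dermis telogen mouse 3. For Cd34 neonatal minus transient dermis was -1.48 to -1.06 (lost without neonatal mouse 1 or 2 or transient mouse 2 or 3), neonatal minus sustained epidermis -2.95 to -2.22, transient minus telogen dermis -0.26 to 0.014 and sustained minus transient epidermis -0.62 to 0.18.

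Counts of bulge genes higher than telogen with arrays centred on their median were 4 in neonatal dermis, 4 in sustained dermis and 3 in sustained epidermis. Signals near or below the 5th percentile of an array, as for Lgr5 1444519_at in telogen dermis, bound a level only loosely.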

Other observations

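Immune markers of the epidermal sort moved between states as well. The 6 named of 8 listed Langerhans and dendritic cell markers summed to 1306 to 1823 linear units in neonatal, 749 to 2800 in transient, 300 to 493 in sustained and 4725 to 5317 in telogen epidermis, and to between 37.5 and 247.6 in all dermis arrays. The 9 named of 14 macrophage markers summed to 1623 to 2150 in neonatal, 471 to 1461 in transient, 293 to 421 in sustained and 2088 to 2997 in telogen epidermis, and the 3 named of 9 T cell markers to 6.3 to 17.2, 69.8 to 78.2, 31 to 50.2 and 185 to 303. The telogen range reached highest for each of these 3 lists, but the neonatal macrophage range overlapped it. Of the 9 macrophage genes 2 were called lower in neonatal than telogen epidermis and 7 were not called, with a median difference of 0.01. The macrophage and the Langerhans and dendritic cell sums were lowest in sustained epidermis, whereas epidermal Cd34 was lowest in neonatal. In limma all 3 T cell genes were lower in neonatal than telogen epidermis (Cd3e fell by 5.11), and 5 of the 6 Langerhans and dendritic cell genes were lower in sustained than telogen epidermis, where Cd34 missed the threshold. Of all named genes 16.8% were lower in neonatal and 3.22% in sustained epidermis. The part of these cells in the Cd34 values was not tested.

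The 4 named of 15 hair shaft and inner root sheath keratins, which mark a growing follicle, summed to 277 to 1391 in neonatal, 384 to 1536 in transient, 709 to 1140 in sustained and 44.2 to 45.1 in telogen epidermis. In dermis they summed to 104 to 220, 181 to 291, 306 to 1078 and 20.5 to 35 in the same order. All 4 were called higher in each state than in telogen epidermis, Krt25 by 6.09, 7.10 and 7.03, while Lgr5 was not called higher in any of the 3. Of all named genes 12.3% were higher in neonatal, 2.81% in transient and 3.05% in sustained epidermis. In neonatal dermis, where Lgr5 was highest, 3 of the 4 were called higher than in telogen (23.4% of all named genes were). In transient dermis limma called 0, and 4 had an unadjusted p under 0.05. In sustained dermis all 4 were called higher (18% of all named genes were), beside the higher Lgr5 and keratinocyte markers there. The part of follicle RNA in the dermal Lgr5 values was not tested. Pericyte markers (8 named of 9) summed to 730 to 893 in neonatal, 902 to 1123 in transient, 650 to 676 in sustained and 1755 to 2611 in telogen dermis, adipocyte markers (3 of 9) to 2106 to 2994, 1013 to 2008, 379 to 795 and 2437 to 2607, and melanocyte markers (4 of 8) to 111 to 159, 207 to 358, 180 to 226 and 210 to 381.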
